A study of Hordeum vulgare with 24 samples.

Results

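HvMADS5 (HORVU7Hr1G025700), HvMADS7 (HORVU7Hr1G054220), HvMADS8 (HORVU5Hr1G076400) and HvMADS34 (HORVU5Hr1G095710) are the SEPALLATA genes of barley apart from HvMADS1. They were chosen by identifier as the remaining members of that gene group, and are 4 of the 39734 identifiers in the deposited tables. RNA had been sequenced from young inflorescences of the cultivar Golden Promise, in wild-type plants (WT) and in plants mutant for HvMADS1 (mads1). All plants had a 16 h photoperiod and 50% humidity. They were grown in the cool, with days of 15 °C and nights of 10 °C (LT), or in the warm, with days of 25 °C and nights of 20 °C (HT). Spikes came from 2 Waddington stages, W2.5 and W3.5, which are steps on a scale that follows the shape of the developing barley apex. The 8 groups of genotype, temperature and stage held 3 libraries each. Each library was 1 biological replicate made from 15 to 20 pooled spikes. The sources used here do not give the allele of mads1, what kind of mutation it is or how many lines were used.

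SEPALLATA genes encode MADS-box transcription factors that join other floral MADS-box proteins in larger DNA-binding complexes and are needed for the identity of floral organs and floral meristems. Grasses carry 2 branches of the group. HvMADS1, HvMADS5 and HvMADS34 belong to the LOFSEP branch, and HvMADS7 and HvMADS8 to the SEP3 branch. In rice, the MADS34 gene acts in the branching of the inflorescence and in spikelet identity, MADS5 acts beside MADS1 and MADS34 in the flower, and MADS7 and MADS8 act together in the inner floral organs. The names come from knowledge of the family. The tables do not pair them with the identifiers, and they were not checked by sequence.

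Library totals ran from 13283533 to 19864259 counted reads, and 18394 identifiers passed a filter on low counts and were tested, all 4 genes among them. WT_HT_W2.5 replicate 3 stood apart from the other 23 libraries. Its scaling factor was 0.575 against 0.959 to 1.08, and its highest rank correlation with any library, over the tested genes, was 0.818, against 0.922 or more between the others. For many values of the 4 genes that rest on this library, and for their calls that change without it, the value without it is given as well. Sums over genes, shares among the 4 genes and most ratios between genes are given with it only. The mutated gene HvMADS1 (HORVU4Hr1G067680) had 0, 6 and 193 reads in the 3 libraries labelled mads1 at HT W3.5, so replicate 3 of that group also differed from its partners. In the other libraries labelled mads1 it had 141 to 798 reads, against 80 to 1305 in WT, ranges that pool the stages and temperatures. Within a setting it was lower in mads1 without overlap at LT W2.5, at 235 to 408 against 656 to 798 reads. It was also lower at LT W3.5, at 738 to 798 against 1074 to 1305 reads. Neither difference was called with edgeR. At HT W2.5 it was not lower in mads1, at 141 to 236 reads against 80 to 140. The floral meristem genes HvMADS14 and HvMADS15, of the APETALA1/FRUITFULL group, were present in every library, at 205 to 463 and 23.2 to 83.2 CPM. CPM (reads relative to library size) were scaled here with TMM, a method that evens out differences in library make-up.

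The 4 genes spanned a wide range of levels, from a transcript present in every library at all times to transcripts that were almost unread at W2.5. HvMADS34 was read in all 24 libraries, 32301 reads in total, and HvMADS5 in all 24 with 9621 reads. HvMADS7 and HvMADS8 had 3471 and 2766 reads in total and none at all in 6 and 5 libraries, all of them W2.5 libraries. Within the SEP3 branch no W3.5 library was without reads.

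HvMADS34 stood at 78.1, 103 and 79.3 CPM in the WT libraries at LT W2.5 and at 97.3, 106 and 97.6 CPM at LT W3.5. In mads1 it stood at 89.7, 115 and 106 CPM at LT W2.5 and at 107, 116 and 119 CPM at LT W3.5. The stages overlapped within each genotype at LT, and mads1 at LT W3.5 lay above both WT groups at LT. At HT it read 36.6, 40.6 and 151 CPM in WT at W2.5 and 66.3, 53.1 and 65.0 CPM at W3.5. In mads1 at HT it read 47.6, 43.5 and 39.0 CPM at W2.5 and 56.6, 64.9 and 54.7 CPM at W3.5. Every HT library but the unlike WT_HT_W2.5 replicate 3, at 151 CPM, lay below all 12 LT libraries. In FPKM, which are divided by gene length and library total but not scaled by TMM, this library also read above its partners, at 72.6 against 31.6 and 34.8.

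HvMADS5 stood at 18.3, 24.4 and 15.7 CPM in WT at LT W2.5 and at 37.5, 42.8 and 32.5 CPM at LT W3.5. In mads1 at LT it rose from 14.6, 11.7 and 10.8 CPM to 38.4, 47.6 and 58.7 CPM. At LT the libraries of the later stage thus lay above those of the earlier stage in both genotypes. At HT it read 2.61, 4.69 and 4.36 CPM in WT at W2.5 and 35.7, 28.4 and 35.4 CPM at W3.5. In mads1 at HT it read 2.85, 3.49 and 3.37 CPM at W2.5 and 33.8, 28.9 and 18.5 CPM at W3.5. The 6 HT libraries of W2.5 were the lowest of all 24, and the 18.5 CPM came from mads1_HT_W3.5 replicate 3.

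HvMADS7 had 15, 45 and 4 reads in WT at LT W2.5, no read in the 3 mads1 libraries at LT W2.5, no read in the 3 WT libraries at HT W2.5, and 2, 9 and 1 reads in the mads1 libraries at HT W2.5. At W3.5 its level stood at 20.4, 18.2 and 16.6 CPM in WT and 16.8, 19.0 and 27.1 CPM in mads1 at LT, and at HT W3.5 it was 18, 15.4 and 19.2 CPM in WT and 9.60, 8.36 and 4 CPM in mads1. The 3 mads1 libraries at HT were the lowest of the 12 W3.5 libraries, with no overlap.

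HvMADS8 had 27, 54 and 10 reads in WT at LT W2.5, 1, 4 and 0 in the mads1 partners of these, 0, 1 and 0 in WT at HT W2.5, and 0, 7 and 0 in the mads1 libraries at HT W2.5. At LT W3.5 its level stood at 12.8, 13.2 and 13.5 CPM in WT and 12.6, 16.4 and 18.2 CPM in mads1, and at HT W3.5 it was 14.1, 11.6 and 13 CPM in WT and 9.54, 9.62 and 7.65 CPM in mads1. As for HvMADS7, the mads1 libraries at HT were the lowest of the W3.5 libraries. In WT at LT W2.5 the same replicate, number 2, read highest in HvMADS5, HvMADS7, HvMADS8 and HvMADS34.

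**Figure D1:**
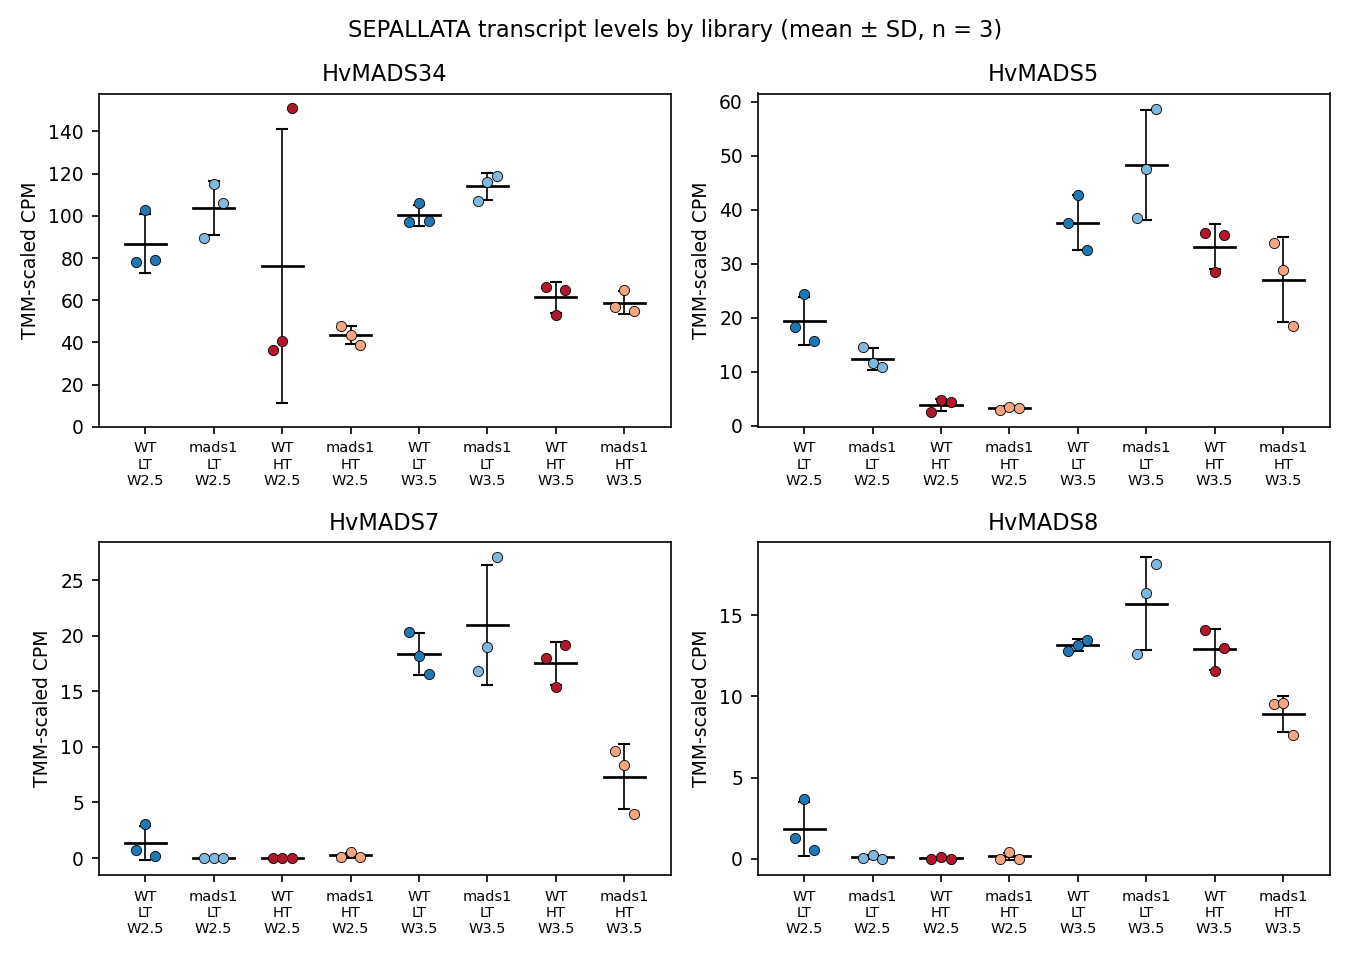
TMM-scaled CPM of HvMADS5, HvMADS7, HvMADS8 and HvMADS34 in each library, by group (points), with the mean (line) and SD (bar) of 3 libraries. HvMADS34 is lower at HT than at LT except in 1 library at 151 CPM, while HvMADS7 and HvMADS8 lie near 0 in all W2.5 groups but WT at LT. In that group HvMADS7 and HvMADS8 reach 3.06 and 3.67 CPM in replicate 2, but only 0.203 and 0.509 CPM in replicate 3.

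By mean level, the highest group of each of the 4 genes was mads1 at LT W3.5, at 48.2 ± 10.2 CPM (SD, n = 3) for HvMADS5, 21.0 ± 5.41 for HvMADS7, 15.7 for HvMADS8 and 114 for HvMADS34. Its libraries overlapped those of the next group in every case, which was WT at LT W3.5 for HvMADS5, HvMADS7 and HvMADS8 and mads1 at LT W2.5 for HvMADS34. For HvMADS7 and HvMADS8 the order of the W3.5 groups ran on to WT at HT, which overlapped WT at LT, and to mads1 at HT, which did not overlap WT at HT. For HvMADS5 all 4 W3.5 groups overlapped their neighbours in the order, and mads1 at HT W3.5 also overlapped the next group, WT at LT W2.5. HvMADS34 was ordered by temperature, with the 4 LT groups above the 4 HT groups by mean level. The step from LT to HT fell between WT at LT W2.5, at 86.7 ± 13.9 CPM, and WT at HT W2.5, at 76.2 ± 65.1 CPM, which without replicate 3 stood at 38.6.

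Shares of the SEPALLATA transcript pool were computed per library from FPKM, with HvMADS1 included in the pool, and are a description with no test. The pool was made mostly of HvMADS34 at W2.5 and was spread more evenly over the genes at W3.5. HvMADS34 made up 52.0% ± 0.528 (SD, n = 3) of the pool in WT at LT W2.5 and 37.7% ± 0.335 at LT W3.5. In mads1 at LT its share was 72.9% ± 3.67 at W2.5 and 40.1% ± 2.86 at W3.5. At HT it went from 78.1% ± 11.0 (72.2% without replicate 3) to 27.5% ± 1.27 in WT and from 71.3% ± 5.34 to 47.4% ± 3.30 in mads1. The share was lower at the later stage in all 4 settings, without overlap of libraries. The pool itself grew between these stages, in summed FPKM from 142 to 239 in WT at LT, from 119 to 239 in mads1 at LT, from 57.8 to 195 in WT at HT and from 51.5 to 104 in mads1 at HT.

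HvMADS5 took 16.2% of the pool in WT at LT W2.5 and 19.7% at W3.5, and 12.3% and 23.3% in mads1 at LT. At HT its share was 7.39% (9.28% without the unlike library) at W2.5 and 20.7% at W3.5 in WT, and 7.45% and 30.1% ± 6.75 in mads1. HvMADS5 thus held less of the pool at W2.5 than at W3.5 in all 4 settings. At W3.5 HvMADS7 held 9.09%, 9.53%, 10.3% and 7.61% in WT at LT, mads1 at LT, WT at HT and mads1 at HT. HvMADS8 held 6.92%, 7.64%, 8.07% and 10.0% in the same groups. HvMADS1 accounted for 26.7% and 33.4% of the pool in WT at LT and HT W3.5, for 19.4% in mads1 at LT W3.5 and for 4.84% in mads1 at HT W3.5, where it held 0.152% without replicate 3.

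Shares with HvMADS1 in the pool depend on HvMADS1, so the share among the other 4 genes was computed as well. On that measure the HvMADS34 share at LT W2.5 was 73.8% ± 3.61 in WT and 85.5% ± 3.5 in mads1, and at LT W3.5 it was 51.4% ± 1.61 and 49.8% ± 4. In the warm it held 91.0% ± 5.10 in WT and 89.6% ± 2.20 in mads1 at W2.5, and 41.3% ± 0.219 and 50.2% ± 6.53 at W3.5. The genotypes thus lay within 1 SD of each other at LT W3.5 and at HT W2.5. The summed FPKM of the 4 genes was 175 ± 10.3 in WT and 193 ± 20.3 in mads1 at LT W3.5, and 130 ± 16.3 and 99.4 ± 19.3 at HT W3.5.

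**Figure D2:**
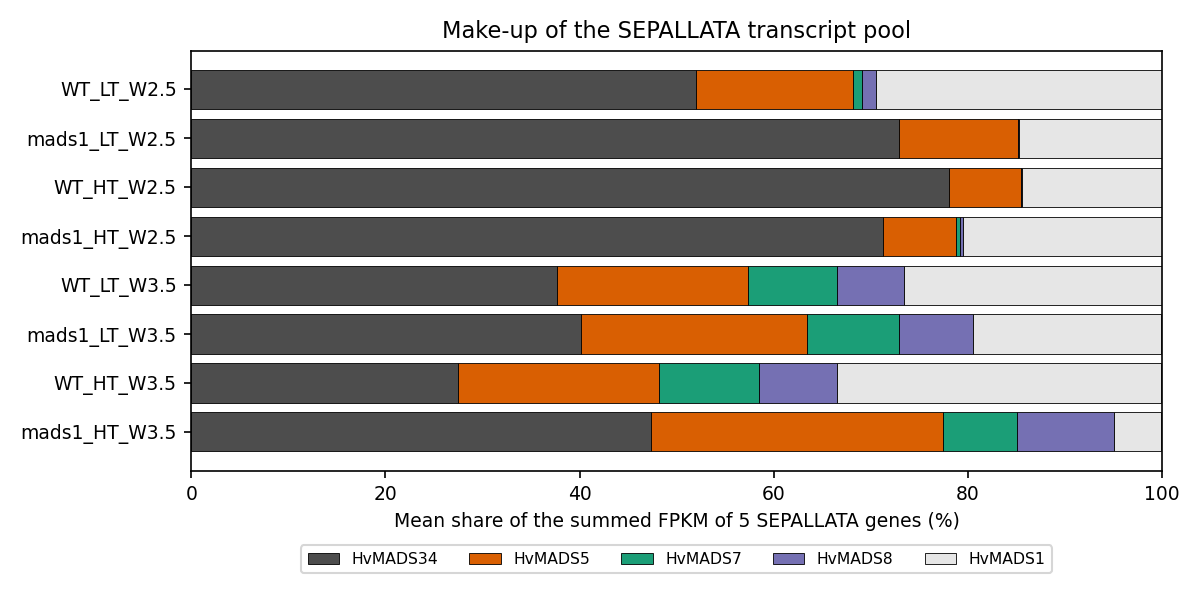
Mean share of the summed FPKM of the 5 SEPALLATA genes held by each gene, as a percent, in the 8 groups (stacked bars, 3 libraries each). HvMADS34 fills 52.0% to 78.1% of the bar at W2.5 and 27.5% to 47.4% at W3.5.

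Compared per gene length within each group, HvMADS34 was the highest of the 5 genes in 7 of the 8 groups, and in 3 of 3 libraries of each. The exception was WT at HT W3.5, where HvMADS1 stood at 64.9 ± 2.47 FPKM and HvMADS34 at 53.9 ± 6.95 FPKM, with HvMADS1 above in 3 of 3 libraries. HvMADS5 stood below HvMADS1 in the WT groups. In mads1 it was above HvMADS1 at W3.5, at 56.2 ± 10.3 against 46.2 ± 2.70 FPKM at LT and 31.8 ± 10.2 against 4.37 ± 7.28 FPKM at HT, in 3 of 3 libraries each. HvMADS7 and HvMADS8 were the lowest of the 4 genes in all 8 groups.

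The genes differed in how far they had already come on at W2.5. Taking the mean CPM at W2.5 as a percent of that at W3.5, HvMADS34 stood at 86.5% in WT at LT, 90.7% in mads1 at LT, 73.9% in mads1 at HT and 124% in WT at HT, which was 62.8% without the unlike library. HvMADS5 stood at 51.8% in WT at LT, 25.6% in mads1 at LT, 11.7% in WT at HT and 11.9% in mads1 at HT. HvMADS8 stood at 13.8%, 0.61%, 0.189% and 1.49% in the same order, the last 3 resting on 5, 1 and 7 reads. HvMADS7 stood at 7.2% in WT at LT, on 64 reads, and at 3.19% in mads1 at HT, on 12 reads. It had no read at W2.5 in mads1 at LT or WT at HT, which, with 3 counts over the group as the limit for none seen, allows up to 0.281% and 0.432%. The order HvMADS34, HvMADS5, HvMADS8, HvMADS7 from earliest to latest thus appeared by these percents in both genotypes at LT. In mads1 at LT, however, HvMADS8 came before HvMADS7 only on 5 reads against none. Of the 5 reads, 4 were in mads1_LT_W2.5 replicate 2, so the order of these 2 genes is not firm there. In WT at HT the limit for HvMADS7 lay above the value of HvMADS8, so the last 2 could not be ordered, and in mads1 at HT they changed places, on 7 and 12 reads.

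**Figure D3:**
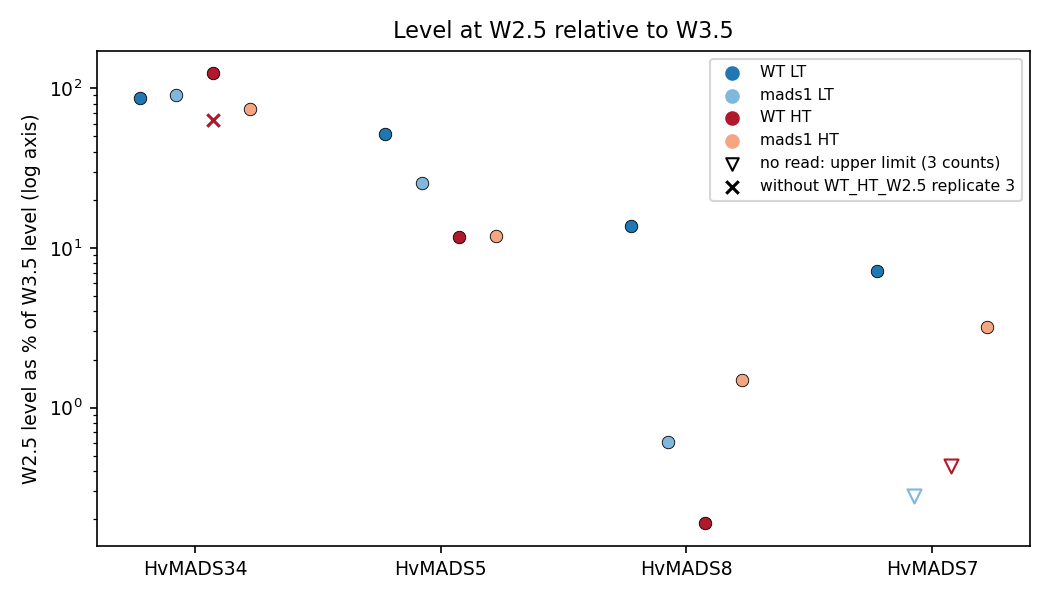
Mean CPM at W2.5 as a percent of mean CPM at W3.5, on a log axis, for the 4 genes in each genotype and temperature (points, 3 libraries per stage). Open triangles are upper limits where no read was counted, 0.281% and 0.432%, and the cross is HvMADS34 in WT at HT without the unlike library, 62.8%.

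Between W2.5 and W3.5, HvMADS5, HvMADS7 and HvMADS8 rose, and HvMADS34 passed the test in no setting with all libraries. Of the 16 gene and setting tests, 11 were called at an edgeR adjusted p under 0.05, all higher at W3.5. In WT at LT, where 0.429% of all tested genes were called higher, HvMADS7 rose by 3.86 log2 units (SE 0.63, edgeR adjusted p = 0.0076) and HvMADS8 by 2.90 (SE 0.54, adjusted p = 0.013). HvMADS5 was not called there, its rise being 0.95 log2 units (SE 0.24, edgeR adjusted p = 0.084), although its libraries did not overlap. In mads1 at LT, where 1.15% of genes were called higher, HvMADS5 rose by 1.96 (SE 0.24, edgeR adjusted p = 0.00012). HvMADS7, unread at W2.5, was at least 356-fold higher, taking 3 counts over the group as the floor (edgeR adjusted p = 8.4e-05). HvMADS8 was 159-fold higher, with a 95% counting interval of 67.7 to 490 (adjusted p = 2.3e-05).

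In WT at HT, where 5.59% of genes were called higher, HvMADS5 rose by 3.11 (SE 0.26, edgeR adjusted p = 1.6e-06), and by 3.23 (SE 0.29, adjusted p = 5.9e-07) without the unlike library. HvMADS7 was at least 232-fold higher (edgeR adjusted p = 7.9e-05). HvMADS8 was 512-fold higher (adjusted p = 1.5e-05), a ratio that rests on 1 read at W2.5 and has an interval of 91.5 to 20242. In mads1 at HT, where 4.68% were called higher, HvMADS5 rose by 3.06 (SE 0.26, edgeR adjusted p = 1.0e-06), HvMADS7 30.8-fold (17.4 to 60.2, adjusted p = 0.00088) and HvMADS8 63.9-fold (30.8 to 160, adjusted p = 4.2e-05). Each of these called genes was higher in 3 of 3 libraries. Because some W2.5 groups held so few reads, single libraries moved these ratios. For HvMADS7 the bound in WT at HT was 131-fold without WT_HT_W2.5 replicate 1 and 152-fold without replicate 2, and in mads1 at LT it was 233-fold to 241-fold without 1 of the W2.5 libraries, since the floor is then spread over fewer reads. In mads1 at HT the HvMADS7 ratio was 79.9 without mads1_HT_W2.5 replicate 2. The HvMADS8 ratio in WT at HT was 289 without WT_HT_W2.5 replicate 1 and at least 112 without replicate 2. Without the unlike replicate 3 the bound for HvMADS7 was 181-fold and the ratio for HvMADS8 was 399. In mads1 at LT it was 519 without mads1_LT_W2.5 replicate 2 and 106 without replicate 3, and in mads1 at HT at least 96.1 without mads1_HT_W2.5 replicate 2. HvMADS34 had log2 fold changes of 0.21, 0.14, -0.30 and 0.44 in WT at LT, mads1 at LT, WT at HT and mads1 at HT (SE 0.34 each, edgeR adjusted p 0.50 to 1). The negative value came from the setting that holds the unlike library.

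With WT_HT_W2.5 replicate 3 left out, 14 of the 16 stage tests were called, all higher. These include the 3 calls in mads1 at LT, where 4.19% of genes were called higher in that fit. HvMADS5 then passed in WT at LT, at 0.99 log2 units (SE 0.20, edgeR adjusted p = 0.0066), where 2.14% of genes were called higher. HvMADS34 passed at HT in both genotypes, at 0.69 (SE 0.13, edgeR adjusted p = 0.0013) in WT and 0.43 (SE 0.11, adjusted p = 0.0065) in mads1, against 5.01% and 14.8% of genes called higher. At LT it stayed uncalled, at 0.24 (edgeR adjusted p = 0.24) and 0.12 (adjusted p = 0.57). The stage calls of HvMADS7 and HvMADS8 in WT at LT depended on single W2.5 libraries. That of HvMADS7 was lost without WT_LT_W2.5 replicate 1 (edgeR adjusted p = 0.072), and that of HvMADS8 without replicate 1 or 3 (adjusted p 0.098 to 0.11). Without WT_LT_W2.5 replicate 2 the changes were larger, 5.29 for HvMADS7 and 3.86 for HvMADS8.

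**Figure D4:**
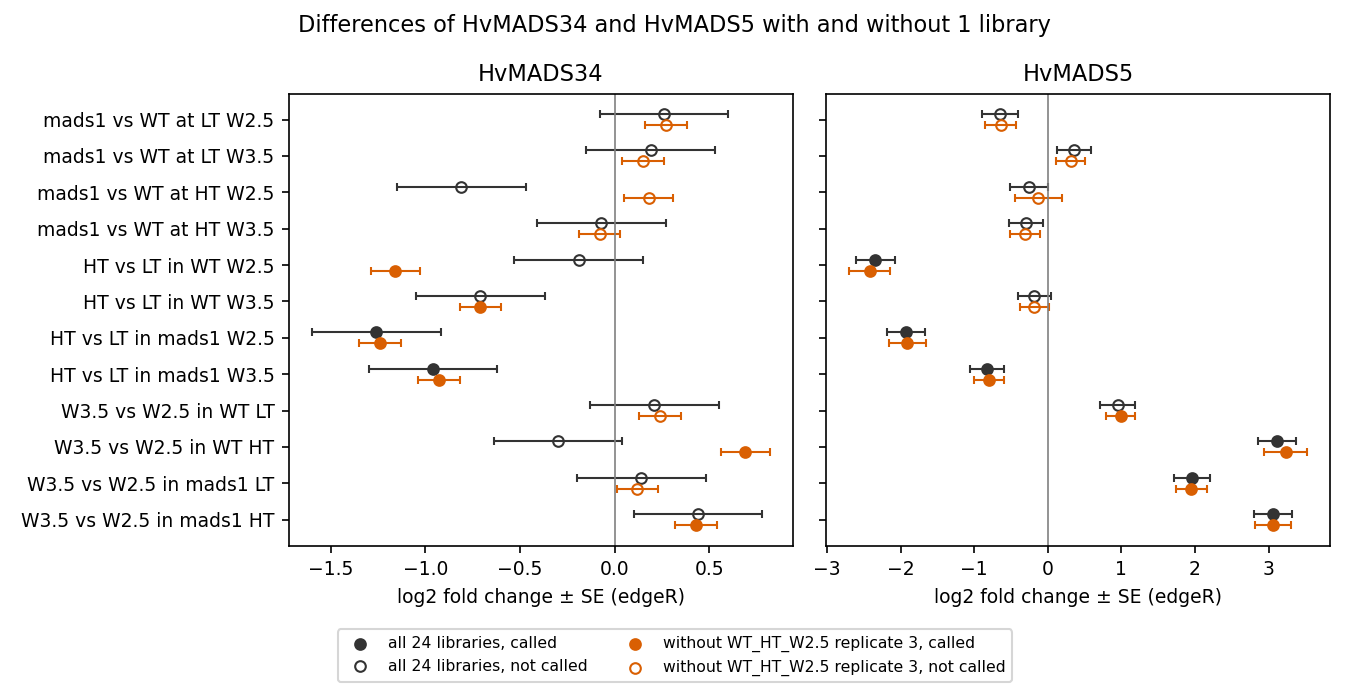
Log2 fold change with its SE from edgeR for HvMADS34 and HvMADS5 in the 12 comparisons of genotype, temperature and stage, with all libraries and without WT_HT_W2.5 replicate 3 (filled where called, open where not). For HvMADS34, the temperature difference in WT at W2.5 moves from -0.19 to -1.16 and the SE from 0.34 to 0.13, while the HvMADS5 values move less.

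Warmth was set against the cooler regime within each genotype and stage, and 7 of the 16 tests were called with edgeR, all lower at HT. In WT at W2.5, where 5.59% of tested genes were called lower, HvMADS5, HvMADS7 and HvMADS8 fell. HvMADS5 fell by 2.34 log2 units (SE 0.26, edgeR adjusted p = 1.7e-05), and by 2.42 (SE 0.28, adjusted p = 8.7e-06) without the unlike library. HvMADS7, unread at HT, was at least 17.5-fold lower (edgeR adjusted p = 0.0093), at least 6.05-fold without WT_LT_W2.5 replicate 2, and at least 9.88-fold and 11.5-fold without WT_HT_W2.5 replicate 1 or 2. HvMADS8 was 65.1-fold lower (11.4 to 2598, from 91 reads against 1, edgeR adjusted p = 0.0027). It was 36-fold lower without WT_LT_W2.5 replicate 2, 36.7-fold without WT_HT_W2.5 replicate 1 and at least 15.8-fold without WT_HT_W2.5 replicate 2. Without the unlike replicate 3 HvMADS7 was at least 13.7-fold and HvMADS8 50.7-fold lower. HvMADS34 was not called, at -0.19 (SE 0.34, edgeR adjusted p = 0.69). In the fit without the unlike WT_HT_W2.5 replicate 3 it fell by 1.16 (SE 0.13, edgeR adjusted p = 5.2e-06), while 7.71% of genes were called lower. In bulk RNA of whole spikes, fewer cells with a transcript and less of it per cell cannot be told apart.

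In mads1 at W2.5, where 3.82% of genes were called lower, HvMADS5 fell by 1.93 (SE 0.26, edgeR adjusted p = 0.0001) and HvMADS34 fell by 1.26 (SE 0.34, adjusted p = 0.028), each lower in 3 of 3 libraries. HvMADS7 had 12 reads at HT and 0 at LT, and HvMADS8 had 7 and 5, and neither was called with edgeR (adjusted p = 0.18 and 0.90). The DESeq2 Wald test called HvMADS7 higher at HT there. The low reads at LT left no room to see a fall. In mads1 at W3.5, where 13.2% were called lower, HvMADS34 fell by 0.96 (SE 0.34, edgeR adjusted p = 0.043) and HvMADS5 fell by 0.83 (SE 0.23, adjusted p = 0.012). HvMADS7 was at -1.52 (SE 0.55, edgeR adjusted p = 0.052) and HvMADS8 at -0.82 (SE 0.49, adjusted p = 0.24). In the fit without WT_HT_W2.5 replicate 3 HvMADS7 was called lower, at -1.48 (SE 0.42, edgeR adjusted p = 0.0061). The libraries of both genes did not overlap between the temperatures there.

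In WT at W3.5 no member was called, while 6.14% of tested genes were called in either direction. The log2 fold changes were -0.18 for HvMADS5, -0.07 for HvMADS7, -0.03 for HvMADS8 and -0.71 for HvMADS34, with SE of 0.23, 0.53, 0.48 and 0.34. At an unadjusted p under 0.05 0 passed with edgeR. By the DESeq2 Wald test 0 were called and 1 had an unadjusted p under 0.05. Without the unlike library HvMADS34 fell by 0.71 (SE 0.11, edgeR adjusted p = 9.3e-05), when 12.2% of genes were called lower. Once that library was left out, HvMADS34 was thus called lower at HT in all 4 settings, with log2 fold changes of -1.16, -0.71, -1.24 and -0.93 in WT at W2.5 and W3.5 and mads1 at W2.5 and W3.5.

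With all libraries the HvMADS34 calls were close to the threshold. In mads1 at W2.5 the call was lost in 5 of 6 fits that left out 1 of the compared libraries (edgeR adjusted p 0.07 to 0.11), all but the fit without mads1_LT_W2.5 replicate 1. In mads1 at W3.5 it was lost in 6 of 6 (adjusted p 0.069 to 0.12). The fold changes moved little, from -1.35 to -1.17 and from -1.04 to -0.91. Without WT_HT_W2.5 replicate 3, a library that is in neither comparison but in the shared estimate of spread, the edgeR adjusted p were 2.0e-07 and 7.8e-07, with 14.5% and 25.4% of genes called lower. The HvMADS5 call in mads1 at W3.5 was lost without mads1_HT_W3.5 replicate 3 or mads1_LT_W3.5 replicate 3 (edgeR adjusted p 0.069 to 0.076).

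In mads1 against WT, HvMADS7 and HvMADS8 were lower at the earlier stage in the cool, and these were the 2 calls among 16 tests. Both were at LT W2.5, where 0.864% of tested genes were called lower. HvMADS7 had 64 reads in WT and none in mads1, at least 22.5-fold lower (edgeR adjusted p = 0.015), at least 7.76-fold without WT_LT_W2.5 replicate 2, and at least 14.7-fold without mads1_LT_W2.5 replicate 2. HvMADS8 had 91 and 5 reads, 16.7-fold lower with an interval of 6.9 to 52.6 (edgeR adjusted p = 0.0075), and 9.24-fold without WT_LT_W2.5 replicate 2. Without mads1_LT_W2.5 replicate 2 the HvMADS8 ratio was 54.6, on 1 read in mads1. HvMADS5 was at -0.65 (SE 0.24, edgeR adjusted p = 0.29) with no overlap between the genotypes, and HvMADS34 at 0.26 (SE 0.34, adjusted p = 1). Leaving out mads1_LT_W2.5 replicate 1, 2 or 3 ended the HvMADS7 call (edgeR adjusted p 0.056 to 0.062). Leaving out replicate 1 or 3 of that group, or replicate 2 of its WT partner group, ended the HvMADS8 call (adjusted p 0.053 to 0.056).

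At LT W3.5, where 2.42% of tested genes were called, the 4 genes stood between 0.19 and 0.36 on the log2 scale above WT and none was called, nor did any reach an unadjusted p under 0.05 with edgeR or the DESeq2 Wald test. At HT W2.5, where 13.3% of genes were called with edgeR, none of the 4 was among them. At an unadjusted p under 0.05 there were 2, with no share of all genes given for that threshold. The DESeq2 Wald test called HvMADS7, as higher in mads1. HvMADS34 was at -0.81 (SE 0.34, edgeR adjusted p = 0.11). Without the unlike WT library it was at 0.18 (SE 0.13, adjusted p = 0.55), and without either of the other 2 WT libraries it was called lower (adjusted p 0.011 to 0.018). HvMADS7 had 12 reads in mads1 and 0 in WT there, and HvMADS8 had 7 and 1.

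At HT W3.5, where 5.83% of genes were called and the HvMADS1 reads of mads1 were lowest, none of the 4 was called with all libraries. At an unadjusted p under 0.05 there was 1 by edgeR and by DESeq2, with no share of all genes given for that threshold. HvMADS7 was at -1.26 (SE 0.55, edgeR adjusted p = 0.25), HvMADS8 at -0.53 (SE 0.49, adjusted p = 0.73), HvMADS5 at -0.29 (SE 0.23) and HvMADS34 at -0.07 (SE 0.34). Without WT_HT_W2.5 replicate 3 HvMADS7 was called lower, at -1.27 (SE 0.42, edgeR adjusted p = 0.034), in a fit that called 10.6% of genes lower. HvMADS7 and HvMADS8 were lower in all 3 mads1 libraries than in any WT library.

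The differences between effects were tested as interactions, in 24 tests of which 2 were called. In WT, the rise from W2.5 to W3.5 was larger at HT than at LT for HvMADS5, by 2.16 log2 units (SE 0.35, edgeR adjusted p = 0.0034), and for HvMADS8, by 5.73 (SE 1.28, adjusted p = 0.041). Of all tested genes 0.261% were called in that direction. The HvMADS5 call held in all 12 fits that left out 1 library, at 1.92 to 2.34, whereas the HvMADS8 call was lost in 8 of 12 (adjusted p 0.064 to 0.093). The 8 were the fits without WT_LT_W2.5 replicate 1 or 2 or without any of the WT W3.5 libraries. Without the unlike library the values were 2.24 (SE 0.35, edgeR adjusted p = 0.00072) and 5.40 (SE 1.29, adjusted p = 0.028). The fold of HvMADS8 rests on 1 read at HT W2.5 and depends on the prior count, so its size is not a bound. No other interaction of the 4 genes was called with edgeR and all libraries. The nearest was HvMADS7 for genotype by temperature at W2.5 (edgeR adjusted p = 0.055), which was called in 4 of the 12 fits that left out 1 library (adjusted p 0.013 to 0.04), those without WT_LT_W2.5 replicate 2 or 3 or WT_HT_W2.5 replicate 1 or 2.

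The same interaction in mads1, where 1.5% of genes were called, was 1.10 (SE 0.34, edgeR adjusted p = 0.14) for HvMADS5, and without the unlike library 1.11 (SE 0.32, adjusted p = 0.024), against 6.75% of genes called higher. The genotype by stage interaction of HvMADS5 at LT was 1.01 (SE 0.33, edgeR adjusted p = 0.92), the rise being larger in mads1. In that interaction 0.0% of all tested genes were called with edgeR and all libraries. At the unlike threshold of an unadjusted p under 0.05, 3 of the 4 SEPALLATA genes passed, a count that cannot be set against that share. Without the unlike library 0.235% were called higher, HvMADS8 among them (4.24, SE 0.90, edgeR adjusted p = 0.04). The DESeq2 Wald test called 2 of the 4 there with all libraries. Genotype by temperature was called for none of the 4 genes with edgeR, at W2.5 or W3.5, where 0.685% and 1.51% of genes were called. At W2.5, 3 of the 4 had an unadjusted p under 0.05 and DESeq2 called 2, and at W3.5 both counts were 0. Genotype by stage at HT, where 1.88% of genes were called, gave 0 calls with edgeR, 1 at an unadjusted p under 0.05 and 1 with DESeq2. These comparisons share libraries with one another and with the comparisons of stage, temperature and genotype. For the counts at an unadjusted p and for the DESeq2 calls no share of all tested genes is given, so they are not read as particular to these genes.

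Whether the genes moved in proportion to each other was tested on the log2 ratio of each pair in FPKM with 0.5 added, by an exact 2-sided permutation of libraries within the 4 settings. With 6 pairs and 3 factors there were 18 tests, adjusted together by Benjamini-Hochberg. Of these 6 were called, 5 for stage, 1 for temperature and 0 for genotype. From W2.5 to W3.5 the log2 ratio of HvMADS34 moved by -1.97 against HvMADS5, by -4.26 against HvMADS7 and by -3.95 against HvMADS8, in the same direction in 4 of 4 settings each (exact permutation adjusted p = 5.6e-05, from the smallest p the permutations can give, 1.3e-05). The ratio of HvMADS5 moved by -1.97 against HvMADS8 (exact permutation adjusted p = 5.6e-05) and by -2.28 against HvMADS7 (adjusted p = 9.0e-05), also in 4 of 4 settings. With 0.5 FPKM added, these ratios understate the change of HvMADS7 and HvMADS8, which lay under 0.5 FPKM in most W2.5 libraries.

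The ratio of HvMADS8 to HvMADS7 moved by -0.31 with stage (exact permutation adjusted p = 0.13), -0.04 with temperature (adjusted p = 0.78) and 0.07 with genotype (adjusted p = 0.64). The last 2 are means over settings of unlike sign, from -0.49 to 0.74 for temperature and from -0.30 to 0.78 for genotype. Without both unlike libraries the stage value was -0.38 (exact permutation adjusted p = 0.036). Where both genes were near 0 at W2.5, this stage value rests on the 0.5 FPKM added. For temperature, the ratio of HvMADS5 to HvMADS8 was lower at HT, by -0.61 on the log2 scale, with 0.5 FPKM added (exact permutation adjusted p = 0.039). With 0.1 FPKM added it was -0.20 (exact permutation adjusted p = 0.69) and with 1 FPKM added -0.71 (adjusted p = 0.0063), and without WT_HT_W2.5 replicate 3 it was -0.58 (adjusted p = 0.059). The call thus depended on the added value and on 1 library, and in mads1 at W2.5, where HvMADS8 had 7 and 5 reads, the ratio is set largely by the added value. For genotype the log2 ratio moved most for HvMADS34 to HvMADS7, at 0.58 (exact permutation adjusted p = 0.13). All other genotype values lay between 0.07 and 0.51. Each genotype value is a mean over settings of unlike sign. The settings ranged from -0.78 to 1.85 for HvMADS34 to HvMADS7 and from -0.48 to 2.10 for HvMADS34 to HvMADS8. For both pairs the highest came from W2.5 in the cool and the lowest from W2.5 in the warm. The lack of a genotype call therefore does not show that the genes moved in proportion within each setting. Within 1 setting, 3 libraries against 3 cannot give a p below 0.1.

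At W3.5, HvMADS8 reached 0.669 to 0.917 times the FPKM of HvMADS7 in the 9 libraries of the other 3 groups, mean 0.787 ± 0.0781 (SD, n = 9). In mads1 at HT W3.5 the ratio was 1.06, 1.22 and 2.03, the last in the unlike replicate 3. HvMADS8 was above HvMADS7 in 3 of 3 libraries only there among the W3.5 groups. HvMADS8 was also above HvMADS7 in 3 of 3 libraries in WT at LT W2.5, at 2.12 ± 1.83 against 1.44 ± 1.60 FPKM. This contrast of 1 group with the other 3 was seen after the values were known and was not tested.

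**Figure D5:**
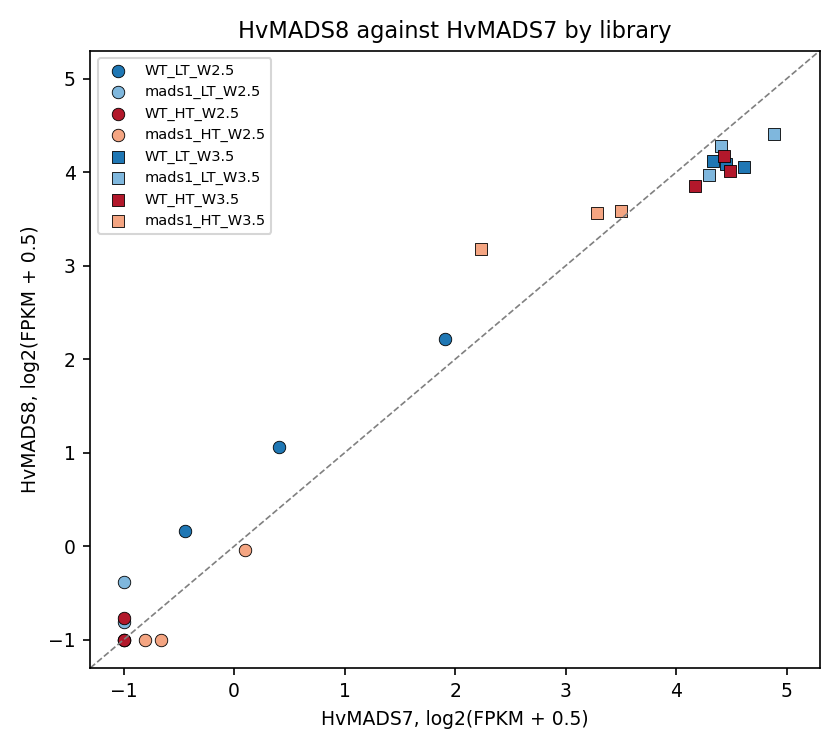
HvMADS8 against HvMADS7 in log2(FPKM + 0.5), 1 point per library, circles for W2.5 and squares for W3.5, with the line of equal values dashed. The 9 W3.5 libraries of WT at LT, mads1 at LT and WT at HT lie below the line and the 3 of mads1 at HT lie above it.

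The 4 genes were set beside the other MADS-box genes of the list, by Pearson's r of log2(CPM + 0.5) over the 24 libraries, which share the stage, temperature and genotype groups. These r are a description. HvMADS7 ran closest to HvMADS3, a gene of the AGAMOUS group that acts in stamens and carpels, with r = 0.99 and rank 1 among all other tested genes, and to HvMADS8, with r = 0.99 and rank 2. HvMADS8 ran closest to HvMADS7 (r = 0.99, rank 1) and to HvMADS16, of the APETALA3 group of petal and stamen genes (r = 0.98, rank 2). HvMADS5 ran closest to HvMADS32, a grass MADS-box gene (r = 0.94, rank 3), and to HvMADS6 of the AGL6 group (r = 0.93, rank 5). Its r with HvMADS18, of the APETALA1/FRUITFULL group, rested on the unlike library. It was 0.79 at rank 84 with WT_HT_W2.5 replicate 3 and 0.93 at rank 6 without it, where HvMADS6 stood at 0.92 and rank 8. HvMADS34 had no partner as close within the list. Its nearest were HvMADS18, with r = 0.84 and rank 59, and HvMADS32, with r = 0.54 and rank 1878. Without WT_HT_W2.5 replicate 3 these r were 0.83 and 0.64.

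HvMADS34 correlated with the other 3 members at r = 0.52 for HvMADS5, 0.26 for HvMADS7 and 0.27 for HvMADS8, and without WT_HT_W2.5 replicate 3 at 0.70, 0.39 and 0.41. Of all tested identifiers, the closest to HvMADS34 was HORVU6Hr1G076380, with r = 0.93 and, without that library, 0.92 at rank 8. The closest to HvMADS7 outside the list was HORVU0Hr1G032300, with r = 0.95 at rank 4. Neither identifier is paired with a name in the tables used here.

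HvMADS1 and the 8 other MADS-box genes of the list were counted in the same comparisons. In WT at W2.5, 6 of these 9 were called lower at HT and 0 higher, with a median log2 fold change of -0.91 against 0.01 over all tested genes. Of all tested genes 5.59% were called lower there. Without the unlike library 7 of the 9 were called lower, against 7.71% of all genes. From W2.5 to W3.5, 4, 7, 6 and 7 of the 9 were called higher in WT at LT, WT at HT, mads1 at LT and mads1 at HT and none lower, with medians of 0.70, 2.84, 1.39 and 1.45 on the log2 scale. The shares of all tested genes called higher were 0.429%, 5.59%, 1.15% and 4.68% in the same order. For genotype, 1 of 9 was called lower at LT W2.5, where 0.864% of all genes were. It was HvMADS6, at -4.15 log2 units (edgeR adjusted p = 3.4e-05). None was called at LT W3.5 with edgeR, where 1 had an unadjusted p under 0.05 and DESeq2 called 1. At HT W2.5 HvMADS18 was called lower, at -0.74 (edgeR adjusted p = 0.043), a call that was lost without the unlike WT library, at -0.15 (SE 0.09, adjusted p = 0.44). At HT W3.5 HvMADS1 itself was called lower, at -3.79 log2 units (edgeR adjusted p = 0.0099). Its value was -3.20 when mads1_HT_W3.5 replicate 1 was left out and -8.39 when replicate 3 was. In the fit without WT_HT_W2.5 replicate 3, 3 of the 9 were called lower at LT W2.5, 1 higher at LT W3.5, 1 higher at HT W2.5, and 1 higher and 4 lower at HT W3.5. Of all genes in that fit 10.6% were called lower at HT W3.5. For the other counts no share is given, so they are not read as particular to these genes.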

How the data were processed

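Libraries were made with the TruSeq RNA kit from pooled spikes, per the labels' protocols. HISAT2 and HTSeq were used, per the submitters' processing notes. The sources used here do not give their versions, the genome build, the annotation or the use of strand. The first deposited table holds raw whole read counts per identifier. The second holds FPKM that the authors derived from these counts, since dividing the counts by 1 length per gene and by the library total returned each deposited value within a relative 9.9e-08. Near-identical or overlapping genes could share reads.

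The analysis used edgeR 4.0.16 in R 4.3.3 (filterByExpr, TMM, quasi-likelihood F tests), with 8 group means in a single fit to 24 libraries, so all groups share 1 spread. There were 12 comparisons of 2 groups and 6 interactions. The Benjamini-Hochberg adjustment ran over 18394 genes, with an adjusted p under 0.05 counted as a call. Shares of all tested genes are given only for such calls with edgeR. Counts at an unadjusted p and calls by other tests have no such share beside them. The SE was taken from the log2 fold change and F. Where a W2.5 group had few or no reads, ratios of CPM are given with 95% counting intervals, or bounds with the empty group set to 3 counts in all. A floor of 3 counts in 1 library is 0.14 to 0.344 CPM. Intervals and floors cover counting error only. Pair ratios used exact permutation tests (scipy 1.17.1, 160000 permutations within settings). The fit was tested on simulated counts with no unlike library among them and with changes set only in genes of higher level. That test therefore does not cover HvMADS7 and HvMADS8 at W2.5. No library pair agreed within sampling noise (chi-square over its degrees of freedom 2.64 to 438).

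The 4 members and the list of 8 further MADS-box genes were chosen with earlier results of these data known. The named genes are the members, HvMADS1, for each member the 2 listed genes closest in r, and at most 2 unnamed identifiers. HvMADS14 and HvMADS15 are named for the check of the tissue, and HvMADS6 and HvMADS18 also for their genotype calls, chosen after their values were seen. Alternatives were DESeq2 1.42.0 (size factors, Wald test), no filter, robust estimation, a replicate block, limma 3.58.1 on log2 FPKM with 1 or 0.1 added, only the compared groups, other added values for the ratios, and leaving out each library. Chosen after seeing the data were the fits without both unlike libraries, the fit without WT_HT_W2.5 replicate 3 with a block, and that without this library for comparisons that do not hold it. No identifier matched the reference table, which holds no name or sequence for them, so no sequence or position is shown.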

Additional observations from a re-analysis of the deposited data

Results flagged for a closer look

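The rise of HvMADS5 from W2.5 to W3.5 in WT differed between the temperatures by a test of the difference itself, being larger at HT by 2.16 log2 units (SE 0.35, edgeR adjusted p = 0.0034). Its libraries stood at 18.3, 24.4 and 15.7 CPM at LT W2.5 and at 2.61, 4.69 and 4.36 CPM at HT W2.5, and overlapped at W3.5.

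The rise of HvMADS8 in WT also differed between the temperatures by the same test, being larger at HT by 5.73 (SE 1.28, edgeR adjusted p = 0.041). The fitted size rests on 1 read at HT W2.5 against 91 at LT W2.5. The call was lost in 8 of 12 fits that left out 1 library (edgeR adjusted p 0.064 to 0.093).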

How the results depend on the processing

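The counts of calls among the 4 genes were 2 of 16 for genotype, 7 of 16 for temperature, 11 of 16 for stage and 2 of 24 for interactions. Temperature calls numbered 11 with limma on log2(FPKM + 1). Interaction calls numbered 10 with the DESeq2 Wald test, 1 with limma on log2(FPKM + 1), with or without a filter, 4 in fits of only the compared groups and 5 without both unlike libraries. For the alternative fits in this paragraph no share of all tested genes stands beside the counts. A change in a count is therefore not read as particular to the 4 genes. Leaving out 1 library gave 0 to 3 genotype calls, 5 to 10 temperature calls, 9 to 14 stage calls and 1 to 4 interaction calls. Without WT_HT_W2.5 replicate 3 the counts were 3, 10, 14 and 4. Replicate numbers were tested as a replicate block, which gave 2, 8, 11 and 2 calls. Deviations of same-numbered libraries had a median correlation of 0.02 (-0.49 to 0.47), against -0.01 for libraries of other numbers. For 11 of 24 libraries the closest was of their own number, a count with no chance value beside it. The numbers were not taken to pair them. Of the member values under alternatives, 1135 kept direction and call, 54 gained a call, 43 lost one and 30 changed sign. Sign changes were, for limma, HvMADS5 for genotype at HT W2.5 (0.01 to 0.03 against -0.25), HvMADS8 for temperature in mads1 at W2.5 (-0.04 against 0.48), and HvMADS34 for stage in WT at HT (0.31 against -0.30) and temperature by stage in WT (0.02 against -0.51). When 1 library was left out, the log2 values of results with a sign change ranged as follows. For HvMADS34 they ranged from -1.16 to 0.14 (temperature, WT W2.5), -0.63 to 0.69 (stage, WT HT), -1.14 to 0.18 (genotype, HT W2.5), -0.84 to 0.45 (temperature by stage, WT), -0.21 to 0.01 (genotype by stage, LT) and -0.26 to 1.07 (genotype by stage, HT). For HvMADS8 they ranged from -2.14 to 4.32 (genotype, HT W2.5), -3.83 to 1.97 (temperature, mads1 W2.5), -0.10 to 0.04 (temperature, WT W3.5), -2.79 to 3.01 (temperature by stage, mads1) and -4.85 to 1.61 (genotype by stage, HT). For HvMADS7 the ranges were -0.04 to 0.33 (genotype, LT W3.5) and -0.14 to 0.02 (temperature, WT W3.5), and for HvMADS5 -0.24 to 0.19 (genotype by stage, HT). Among the pair ratios, HvMADS34 to HvMADS8 for temperature was 0.25 with 0.1 FPKM added, against -0.21. HvMADS8 to HvMADS7 was 0.03 for temperature with 1 FPKM added, -0.11 to 0.00 with 1 library left out, and -0.01 for genotype with 0.1 FPKM added. The cause of these changes was not tested. None of the values that changed sign was called with all libraries. HvMADS7 and HvMADS8 at W2.5 are limited by depth, at 0 to 54 reads per library.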
